A study of Mus musculus with 5 samples.

Results

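The genes described here code for the machinery that brings proteins into mitochondria, folds them there and degrades those that fail. They were chosen by name: every Timm or Tomm gene (26 symbols matched the pattern) and 22 named translocase, chaperone, protease and prohibitin genes. All were present in the gene tables, giving 48 of 35478 genes, and 46 of them had enough counts to be tested.

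Kidney cortex RNA was sequenced from 2 PRDM16flox/flox mice (Prdm16fl/fl, called floxed mice 1 and 3) and 3 Ksp-Cre/PRDM16 flox/flox mice (Ksp-Cre/Prdm16fl/fl, called knockout mice 1, 2 and 3). All 5 were males of strain C57BL/6J;129 (the sample titles have C57BL/6J), aged 7 to 8 weeks, that carried floxed exon 9 of Prdm16 on both alleles and had unilateral ischemia-reperfusion injury (UIRI). The left renal pedicle was clamped for 35 minutes at 38.5°C, the right kidney was removed on day 10, and the mice were killed 24 hours later, on day 11. Ksp-Cre expresses Cre recombinase in tubular epithelium, so other cells of the cortex keep an intact gene, and Cre without the floxed allele was not among the groups. Both groups were injured, so the comparison asks what loss of tubular PRDM16, a transcriptional regulator known from brown fat, changes within the injured kidney. The libraries held 15215871 and 14939040 counts in floxed mice 1 and 3, and the knockout mice had 16425161, 16111708 and 15470435.

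Nearly all mitochondrial proteins are made in the cytosol. They enter through the TOM complex of the outer membrane, after which SAM builds outer-membrane barrels, small TIM chaperones carry hydrophobic proteins across the intermembrane space, TIM22 inserts carriers into the inner membrane, and TIM23 with its motor draws presequence proteins into the matrix. There the presequence is cut off, chaperones fold the protein, and proteases remove what is damaged, and tubules of the kidney cortex, which use much energy for transport, are rich in mitochondria.

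The targeted gene was examined first. Prdm16 was at 25.3 and 20.02 CPM (counts scaled to 1000000 per library, with library sizes set by the trimmed mean of M values) in the floxed mice and at 17.1, 16.9 and 18.0 in the knockout mice. All knockout values lay below both floxed values, but the log2 fold change of -0.38 (SE 0.16) did not pass edgeR's quasi-likelihood test with Benjamini-Hochberg adjustment (adjusted p = 0.259). It was -0.21 without floxed mouse 1 and -0.54 without floxed mouse 3. Counts over the whole gene include exons outside the deleted one and cells without Cre, so this level checks the labels only in part. Knockout mouse 3 stood apart from its group: its log2 CPM correlated across genes at Pearson's r of 0.9573 and 0.9601 with mice 1 and 2, against 0.9913 between mice 1 and 2 and 0.9886 between the floxed mice. Genes are not independent replicates, so these values describe the libraries only.

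Most import, chaperone and protease genes were at lower levels in the knockout kidneys, by amounts that were mostly modest. The median log2 fold change of the 46 tested members was -0.37, with 41 below 0 and 5 above, and the range ran from -1.09 for Hspe1 to 0.15 for Tomm34. Over all 16394 genes tested, the median was 0.04, 46.0% were below 0, and 160 (0.976%) passed the test in either direction. Tomm7, Dnajc19 and Pmpcb passed an edgeR adjusted p of 0.05, all of them lower, which is 3 of 46 (6.52%) where 0.872% of all genes passed in that direction. None was higher by that test, and none had an unadjusted p under 0.05 in that direction, where 7.64% of all genes did. With the unadjusted p under 0.05, 26 members were lower, where 11.2% of all genes were. In 32 of 46 members (69.6%) all 3 knockout values lay below both floxed values, where 21.3% of all genes did so. In 1 member, Timm29, they all lay above both, where 20.3% of all genes did, and in 13 the groups overlapped. The calls depended on single mice: leaving out floxed mouse 1 or 3, or knockout mouse 1 or 2, left 0 members called, whereas leaving out knockout mouse 3 left 19, all lower, with 11.0% of all genes called lower. Leaving out 1 mouse turned the sign or moved the size by over 1.5 times in 19 of the 46 members and in none of Tomm7, Dnajc19 and Pmpcb. DESeq2 called 13 members lower and 0 higher, with 3.38% of all genes called lower, and edgeR without a filter on low counts called 5, with 1.59%. These 2 shares, and all shares given below for DESeq2, are of 25633 genes. That number includes low-count genes that the main filter removed, so these shares and those of the 16394 genes have unlike bases. Upper-quartile scaling left 2 members called, without Pmpcb, and library size scaling, a block on mouse number and removal of the length trend each left 0.

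**Figure D1:**
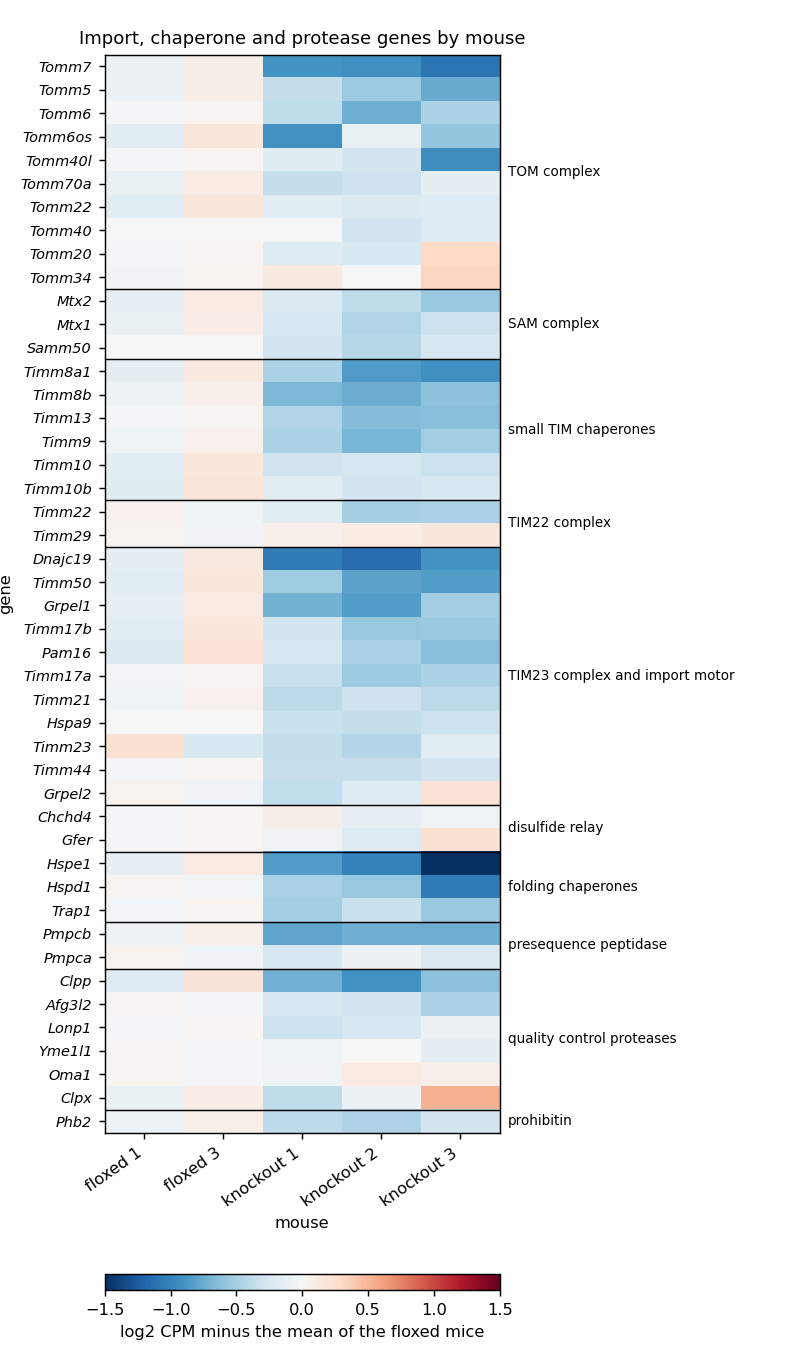
The heat map gives, for the 46 tested members (rows, grouped by role) in each of the 5 mice (columns), the log2 CPM minus the mean of the floxed mice, from blue (lower) to red (higher). Most rows are blue in all 3 knockout columns, with Hspe1 in mouse 3 the darkest at -1.49, while Clpx in mouse 3 is the strongest red at 0.54.

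At the outer membrane, 1 of the 10 tested TOM genes, Tomm7, was called lower, where 0.872% of all genes were. Differences between subunits were not tested. Tomm7, a small subunit that also holds the kinase PINK1 at the outer membrane of stressed mitochondria, lies at chr5:24043942-24049143 on the minus strand in the coordinates of the gene tables. It was at 70.7 and 79.4 CPM in the floxed mice and at 40.1, 39.5 and 35.0 CPM in the knockout mice. The groups were far apart compared with the spread within either, and Tomm7 fell by 0.97 on the log2 scale (SE 0.12, edgeR adjusted p = 0.0412). Tomm5, another small subunit and the TOM gene with the highest level per length (mean 87.2 FPKM, fragments per kilobase of exon at a set library size), was at 69.4 and 78.9 CPM against 58.0, 50.9 and 43.8 CPM. Its groups did not overlap, but the log2 fold change of -0.54 (SE 0.15) did not pass (edgeR adjusted p = 0.138), and it was -0.17 with the length trend removed.

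The third small subunit, Tomm6, had a log2 fold change of -0.52 (-0.27 with the length trend removed), and its groups did not overlap. The antisense transcript Tomm6os, which matches the name pattern but codes for no import protein, had -0.50 with overlapping groups. It was at -0.74 without knockout mouse 2 and -0.32 without floxed mouse 3. Of its exon bases, 38.2% are shared with Prickle4, 13.6% with Frs3 and 7.4% (219 bases) with Tomm6. The pore gene Tomm40 (-0.15) and the receptors Tomm22 (-0.20) and Tomm20 (-0.03) had overlapping groups, and Tomm22 was at -0.02 without floxed mouse 3 and Tomm40 at -0.09 without knockout mouse 2. With the length trend removed, Tomm22 was at 0.06 and Tomm40 at -0.06. The receptor Tomm70a (-0.27) and the pore paralog Tomm40l (-0.43) lay below both floxed values in every knockout mouse. Without floxed mouse 3, Tomm70a was at -0.16, and without knockout mouse 3, Tomm40l was at -0.22. Of the Tomm40l exon bases, 35.7% are shared with Nr1i3. Tomm34, a cochaperone in the cytosol, had 0.15 with overlapping groups (0.07 without knockout mouse 3), and Tomm20l was listed at 0 counts in all 5 libraries. The median of the 10 tested TOM genes was -0.35 (-0.22 with the length trend removed). The metaxin gene Mtx2, a partner of the SAM complex, was at 85.3 and 101 CPM against 79.9, 71.5 and 62.6 CPM, a log2 fold change of -0.39 (SE 0.15, edgeR adjusted p = 0.241, and -0.19 with the length trend removed). Its groups lay close together without overlap. Mtx1 (-0.34) and the barrel-building core Samm50 (-0.32) had separate groups too. With the length trend removed, Mtx1 was at -0.14 and Samm50 at -0.34, and the SAM median of -0.34 was -0.19.

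The small TIM chaperones, which shield hydrophobic proteins in the intermembrane space, had a median of -0.57 (-0.31 with the trend on gene length removed), and in 5 of the 6 tested the groups did not overlap, where 21.3% of all genes had knockout values below both floxed values. Timm8b, with the highest level per length among them (mean 135 FPKM), was at 88.1 and 97.6 CPM against 58.0, 55.2 and 60.8 CPM. The groups were tight and well apart, but the log2 fold change of -0.68 (SE 0.11) stayed just outside the threshold (edgeR adjusted p = 0.0541), though it passed with DESeq2, without a filter, with a minimum of 10 counts per library and without knockout mouse 3 (edgeR adjusted p = 0.00274). It was -0.24 with the length trend removed. Its exons share 15.4% of their bases with Nkapd1 on the other strand. Timm8a1, the mouse counterpart of the gene mutated in deafness-dystonia syndrome, was at 28.3 and 34.5 CPM against 22.4, 17.3 and 16.5 CPM (log2 fold change -0.74, SE 0.18, edgeR adjusted p = 0.115). The values were again separate, with mouse 1 nearest to the floxed mice.

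Of the hexamer partners Timm9 and Timm10, the first had -0.56 and the second -0.30, and Timm13, the partner of the Timm8 proteins, had -0.58. Timm10b had -0.24 with overlapping groups. Without floxed mouse 3, Timm10 was at -0.14 and Timm10b at -0.06. With the length trend removed, Timm10 was at 0.08 and Timm13 at -0.38. Timm8a2 had from 1 to 7 counts per library and was not tested.

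The carrier translocase TIM22 held the only member that was higher in every knockout mouse. Timm29, a subunit of the animal complex, was at 50.2 and 46.9 CPM against 51.1, 52.4 and 54.6 CPM. The gap to the floxed mice was under 1 CPM at its narrowest, and the log2 fold change was 0.12 (SE 0.11, edgeR adjusted p = 0.586), or 0.07 without floxed mouse 3 and 0.17 without floxed mouse 1. Its pore-forming partner Timm22 was at 31.8 and 29.0 CPM against 27.1, 21.6 and 21.7 CPM, a log2 fold change of -0.37 (SE 0.15, edgeR adjusted p = 0.266). The values of the pair thus lay on opposite sides of the floxed mice, with neither passing the test.

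The TIM23 complex and its motor had a median of -0.45, and all 11 genes were below 0. Dnajc19, the J-protein that stimulates the motor's HSP70, is mutated in a human dilated cardiomyopathy with ataxia. It lies at chr3:34111429-34135503 on the minus strand in the coordinates of the gene tables. Its values were 56.2 and 68.5 CPM in the floxed mice and 29.9, 28.1 and 33.2 CPM in the knockout mice, with means of 62.3 ± 8.69 (SD, n = 2) and 30.4 ± 2.63 (SD, n = 3). No knockout value came near the floxed range, and Dnajc19 fell by 1.03 on the log2 scale (SE 0.14, edgeR adjusted p = 0.0412), the only member to pass both the adjusted p and a log2 change of 1, which 0.628% of all genes did in that direction. Hspa9 (mortalin), the motor's HSP70 and the member with the second highest level per length (mean 169 FPKM), was at 590 CPM in both floxed mice and at 467, 459 and 472 CPM in the others. These were very even values within each group, but the log2 fold change of -0.34 (SE 0.12) did not pass (edgeR adjusted p = 0.215).

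The receptor Timm50 (-0.73) and the nucleotide exchange factor Grpel1 (-0.69) were the next farthest below 0, with separate groups and edgeR adjusted p of 0.0811 and 0.0797. The channel genes Timm17a (-0.45) and Timm17b (-0.47), the motor subunit Pam16 (-0.46), the anchor Timm44 (-0.33) and the inner-membrane subunit Timm21 (-0.36) also had separate groups. Without floxed mouse 3, Pam16 was at -0.23 and Timm17b at -0.31. With the length trend removed, Pam16 was at -0.03, Timm17a at -0.21 and Timm23 at -0.13. The groups of the channel gene Timm23 (-0.34) and of Grpel2, the second exchange factor (-0.10), overlapped, and Timm23 was at -0.09 without floxed mouse 1 and -0.55 without floxed mouse 3. Chchd4, the oxidoreductase that traps cysteine-rich proteins in the intermembrane space, was at 35.5 and 36.5 CPM against 38.2, 33.0 and 34.4 CPM. Its values were nearly level across the 5 mice, with a log2 fold change of -0.03 (SE 0.12, edgeR adjusted p = 0.908). Gfer, which reoxidizes Chchd4, had 0.00, although 32.1% of its exon bases are shared with Noxo1. The sign of both small values turned in some alternatives, Chchd4 under library size scaling and Gfer with a minimum of 10 counts per library.

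In the matrix, the folding chaperones had a median of -0.69 over 3 genes, or -0.52 without knockout mouse 3. Hspe1 codes for the HSP10 lid of the mitochondrial chaperonin and had the highest level per length of all members (mean 202 FPKM). It lies at chr1:55127307-55130476 on the plus strand in the coordinates of the gene tables, head to head with Hspd1, which codes for the HSP60 barrel. Hspe1 was at 211 and 250 CPM in the floxed mice and at 129, 114 and 81.3 CPM in the knockout mice. Every knockout value was far below both others, mouse 3 farthest, but with that spread the log2 fold change of -1.09 (SE 0.21) did not pass (edgeR adjusted p = 0.0700).

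Hspd1, given here after its values were seen, was at 515 and 485 CPM against 356, 338 and 239 CPM (log2 fold change -0.69, SE 0.20, edgeR adjusted p = 0.150). The knockout mice were in the same order as for Hspe1, with mouse 3 lowest. The exons of the pair share 96 bases at their 5′ ends. How reads there were counted is not stated, so that part of both counts is uncertain. Trap1, the mitochondrial HSP90, had -0.47 with separate groups. Knockout mouse 3 was also lowest for chaperones of the endoplasmic reticulum, whose list median relative to the floxed mean was 0.11 and -0.10 in mice 1 and 2 and -0.56 in mouse 3. Without that mouse, the log2 fold changes of Hspe1 and Hspd1 were -0.92 and -0.52, with edgeR adjusted p of 0.00216 and 0.0128.

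The presequence peptidase removes targeting sequences from imported proteins. Pmpcb, its catalytic subunit, lies at chr5:21942143-21962150 on the plus strand in the coordinates of the gene tables. It was at 144 and 160 CPM in the floxed mice and at 87.5, 90.8 and 91.3 CPM in the knockout mice, and it fell by 0.76 on the log2 scale (SE 0.11, edgeR adjusted p = 0.0465). The knockout mice were almost identical. The regulatory subunit Pmpca had -0.18 with separate groups, at 79.4 and 74.4 CPM against 65.3, 72.4 and 66.3 CPM, and its exons overlap those of Entr1 and Inpp5e on the other strand.

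Among the quality control proteases, values ranged from -0.76 to 0.07 with a median of -0.14 (-0.24 without knockout mouse 3). Clpp, the peptidase chamber of the matrix ClpXP protease, was at 62.0 and 80.6 CPM against 43.0, 37.6 and 46.0 CPM (log2 fold change -0.76, SE 0.16, edgeR adjusted p = 0.0787). The groups were separate, although the floxed mice differed widely between themselves. Its unfoldase partner Clpx was at 109 and 124 CPM against 89.2, 110 and 168 CPM, with overlapping groups and a log2 fold change of 0.07 that became -0.22 without knockout mouse 3. The m-AAA protease gene Afg3l2 (-0.32) and the matrix protease Lonp1 (-0.22) had separate groups. The i-AAA protease gene Yme1l1 (-0.07) and Oma1 (0.05), the stress-activated protease that cuts OPA1, had overlapping groups. Yme1l1 was at -0.03 without knockout mouse 3 and Oma1 at 0.02 without floxed mouse 3, and Oma1 was at -0.03 with the length trend removed. Phb2, a prohibitin that scaffolds the inner membrane and binds the m-AAA protease, was at 206 and 227 CPM against 164, 156 and 179 CPM. Its groups did not overlap, and its log2 fold change was -0.38 (SE 0.12, edgeR adjusted p = 0.189), or -0.21 with the length trend removed.

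**Figure D2:**
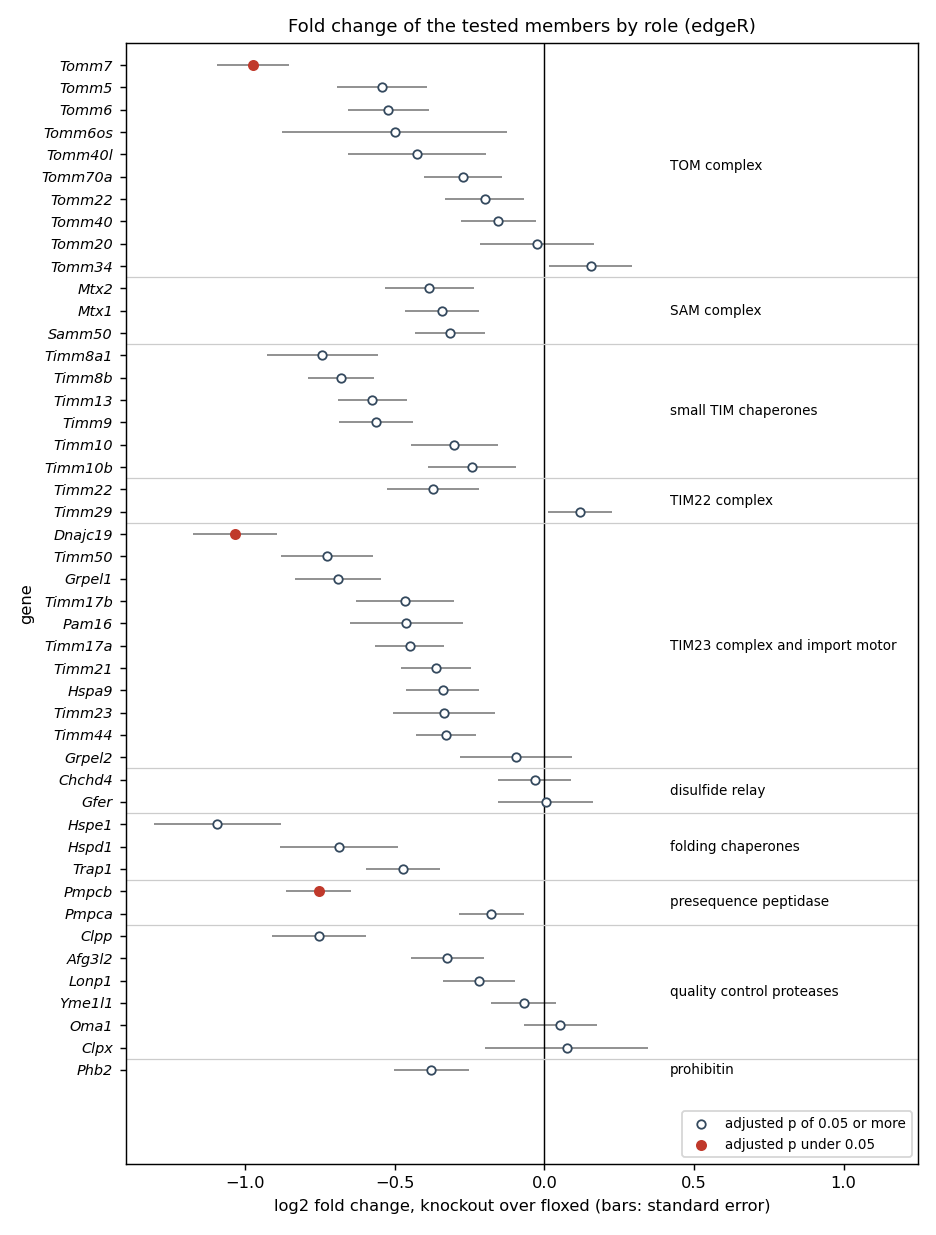
The plot gives the edgeR log2 fold change (x axis, knockout over floxed, bars for the standard error) of each tested member (y axis), grouped by role, with filled red points for an adjusted p under 0.05. The 3 filled points are Tomm7, Dnajc19 and Pmpcb, and only 5 of 46 points lie to the right of 0.

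In some pairs of genes whose products work as partners, the proportions of transcripts differed between these mice. The 10 pairs were chosen after the values were seen and are given without a test. They are ratios of counts within a library, which no scaling of libraries can change. The share of all gene pairs whose ratios separate the groups was not computed. Of single genes, 21.3% had knockout values below both floxed values and 20.3% above both. The Clpp to Clpx ratio was 0.572 and 0.650 in the floxed mice and 0.482, 0.344 and 0.274 in the knockout mice. The Pmpcb to Pmpca ratio was 1.81 and 2.14 against 1.34, 1.26 and 1.38. The Grpel1 to Grpel2 ratio was 1.27 and 1.64 against 1.13, 0.918 and 0.867. In each of these 3 pairs the knockout mice lay below both others, so that transcripts of the peptidase, the catalytic subunit and the first exchange factor were scarcer relative to those of their partners. The Hspe1 to Hspd1 ratio was also lower, at 0.409 and 0.515 against 0.361, 0.337 and 0.341. In these 4 pairs the numerator is the shorter gene. With the length trend removed, the log2 fold change of the numerator minus that of its partner was -0.63 in place of -0.83 for Clpp and Clpx, -0.40 in place of -0.58 for Pmpcb and Pmpca, -0.56 in place of -0.60 for Grpel1 and Grpel2, and -0.10 in place of -0.41 for Hspe1 and Hspd1. The Timm17a to Timm17b ratio was 3.55 and 3.06 against 3.17, 3.34 and 3.47, and the Timm8b to Timm8a1 ratio was 3.11 and 2.83 against 2.59, 3.19 and 3.68. Both overlapped between the groups. The Hspd1 to Hspa9 ratio was 0.873 and 0.821 against 0.761, 0.735 and 0.505, and the Timm9 to Timm10 ratio was 1.99 and 1.76 against 1.65, 1.39 and 1.63, both lower in every knockout mouse. The ratios of Tomm40 to Tomm40l (1.55 and 1.51 against 1.73, 1.51 and 2.57) and of Yme1l1 to Oma1 (4.23 and 4.31 against 4.24, 3.91 and 3.65) overlapped.

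**Figure D3:**
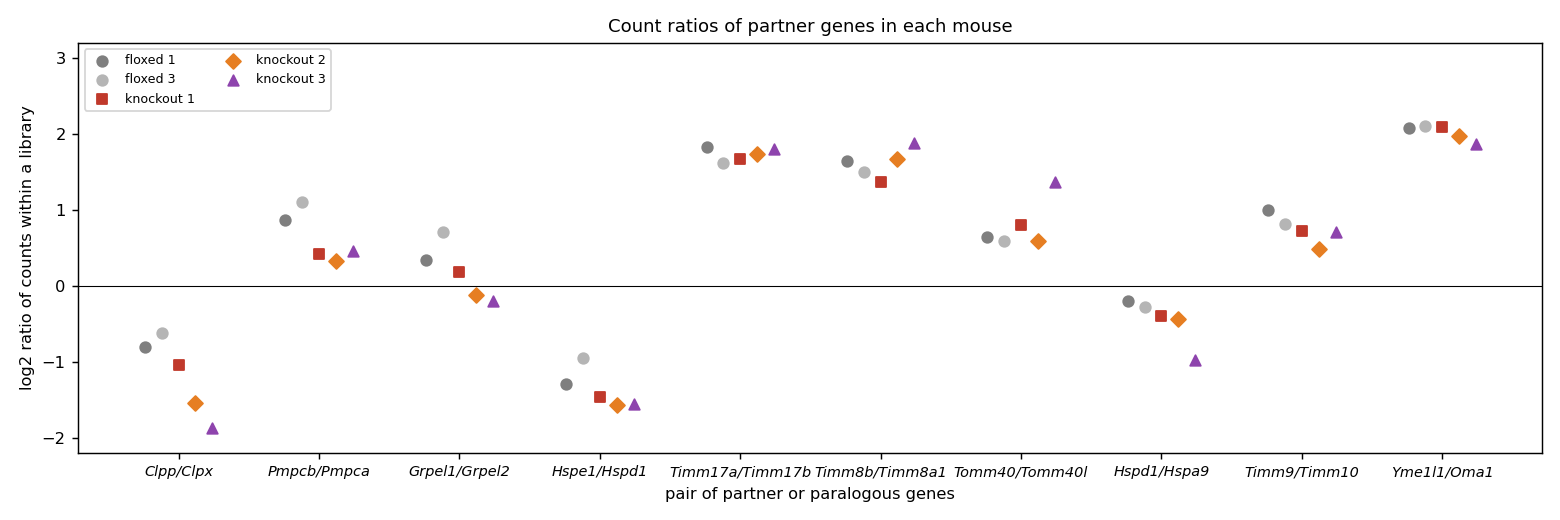
Points give the log2 ratio of counts (y axis) for 10 pairs of partner or paralogous genes (x axis) in each of the 5 mice. The 3 knockout points lie below both floxed points for Clpp/Clpx, Pmpcb/Pmpca, Grpel1/Grpel2, Hspe1/Hspd1, Hspd1/Hspa9 and Timm9/Timm10, and overlap them for the other 4 pairs.

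Promoter sequences, 250 bases before to 50 after the gene start in RefSeq GRCm38.p6, were found for 42 of the 48 members, 40 of them tested. Tomm7, Tomm40l, Timm21, Grpel2, Hspa9 and Afg3l2 had none in that table. The letters CCGGAAG, the core bound by ETS factors such as GABPA (NRF-2), a known regulator of mitochondrial genes, were sought on both strands. They occurred in 18 of the 40 promoters (45.0%), and in 17.3% of the promoters of all tested genes and 9.93% of all promoters. Members that hold the letters had a median log2 fold change of -0.34, and members without them -0.46. Stretches of 30 bases around the match are shown for the gene that passed the test and holds it (Pmpcb), for other members far below 0 (Clpp, Grpel1, Timm8b, Hspe1), and for members near 0 or above (Yme1l1, Timm29). The match is in capitals, read 5′ to 3′ along the strand of the gene, and CTTCCGG is the match on the other strand.
Pmpcb, chr5:21737133-21737162, plus strand: ggagtcatgacCCGGAAGtacatctccact
Clpp, chr17:56990284-56990313, plus strand: ccgggtgttgtagttCCGGAAGccaagccg
Grpel1, chr5:36464970-36464999, plus strand: cacctcctcacCTTCCGGggctcccagaag
Timm8b, chr9:50603878-50603907, plus strand: tgaagcgtgaaCCGGAAGgcaggagacggt
Hspe1, chr1:55088057-55088086, plus strand: cgttctagaacCTTCCGGaaggccccgcgc
Yme1l1, chr2:23156421-23156450, plus strand: tgacagagtccCCGGAAGaggcggagcgct
Timm29, chr9:21592499-21592528, plus strand: agctctgaccaCTTCCGGgctccactcacc

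In GRCm38.p6 the Hspe1 stretch lies between the divergent starts of Hspe1 and Hspd1 and belongs to the promoter of both, whereas in the annotation of the gene tables the first exons of the pair overlap. In it the ETS letters occur on both strands and overlap the letters GAANNTTC, a part of the heat shock element, which 7.5% of the tested members and 7.4% of all tested genes held. Its 3 members, Hspd1, Hspe1 and Timm9, had a median of -0.69, against -0.34 without it. In Hspd1 and Hspe1 the match is the same site, counted for both genes. The median is the value of Hspd1, which was -0.52 without knockout mouse 3. The half-site AAGGTCA of estrogen-related receptors occurred in 6 tested members (15%, against 4.39% of all tested genes), namely Hspd1, Hspe1, Timm23, Timm44, Timm8b and Trap1, with a median log2 fold change of -0.58 against -0.36 in members without it. In Hspe1 it stood in the same region, as chr1:55088089-55088118, plus strand: cccgtgggtgaAAGGTCAagtggcgtcatt. The NRF1 letters GCGCATGCG occurred in Clpx and Timm13 (5.0%, against 3.42%), and the ATF4 letters TGATGCAA in none, against 0.737% of all tested genes. The ETS matches and the half-site of Hspd1 and Hspe1 are likewise shared sites, counted for both genes. These matches describe the letters in the windows and do not show that a factor binds there.

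Other genes of the import pathway and its surroundings were read from the same fit. Of 12 further import and insertion genes, all were below 0 (median -0.27) and none passed edgeR. At an unadjusted p under 0.05, 5 were lower (11.2% of all genes), and DESeq2 called 3 lower (3.38% of all genes). The farthest was Romo1 (-0.79), an inner-membrane protein tied to TIM23, at 64.8 and 83.4 CPM against 44.5, 38.8 and 45.2 CPM. All 7 subunits of MICOS, which shapes cristae and contacts SAM, had separate groups with lower knockout values, as did 21.3% of all genes (median -0.70). Micos13 fell by 0.70 on the log2 scale (edgeR adjusted p = 0.0498), and Apoo was the farthest at -0.90. Of 12 other mitochondrial peptidases and proteases (median -0.27, farthest Afg1l at -0.83), none passed edgeR. At an unadjusted p under 0.05, 3 were lower, where 11.2% of all genes were, and DESeq2 called 2 lower (3.38% of all genes). In that list Phb, the partner of Phb2, had -0.63.

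The mitochondrial stress response genes had a median above 0 (0.30 over 11 tested, 0.13 without knockout mouse 3), and their values went both ways. In 5, all knockout values lay above both floxed values, where 20.3% of all genes did, and in 1, Shmt2, below both (21.3%). The 5 were Gdf15, Trib3 (0.75), Asns (0.50), Phgdh (0.32) and Mthfd2 (0.30), and none passed edgeR. At an unadjusted p under 0.05, 2 were higher, where 7.64% of all genes were, and 1 was lower (11.2%). Shmt2, the mitochondrial serine hydroxymethyltransferase, fell by 1.41 on the log2 scale (edgeR adjusted p = 0.0242), from 249 and 281 CPM to 100, 100 and 98.9 CPM. Gdf15, a hormone released under cell stress, was at 16.9 and 17.7 CPM against 39.4, 32.5 and 94.6 CPM (1.68, edgeR adjusted p = 0.152). The regulators Atf4, Atf5 and Ddit3, chosen after their values were seen, had 0.23, 0.10 and -0.06 with overlapping groups. Their signs differed between knockout mice 1, 2 and 3. Relative to the floxed mean, Atf4 was at 0.075, -0.231 and 0.684, Atf5 at 0.262, -0.012 and 0.06, and Ddit3 at 0.232, -0.18 and -0.298.

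The cytosolic chaperones had a median of -0.01 over 15 genes and the cytosolic chaperonin 0.00 over 8, signs that turned under other settings, while the chaperones of the endoplasmic reticulum had -0.19 over 14, a median that was -0.40 without knockout mouse 1 and -0.01 without knockout mouse 3. None of these genes passed edgeR, 3 of them having an unadjusted p under 0.05, all cytosolic chaperones and higher, where 7.64% of all genes were, and DESeq2 called 2 of the cytosolic chaperones higher, where it called 1.2% of all genes higher. The farthest cytosolic chaperone was the heat shock gene Hspa1b, at 27.2 and 22.7 CPM against 65.3, 49.1 and 42.6 CPM (1.07, edgeR adjusted p = 0.0746). The farthest in the other lists were Tcp1 (0.22) and Sdf2l1 (-0.47), both with overlapping groups. Relative to the floxed mean, Tcp1 was at 0.04, 0.02 and 0.54 in knockout mice 1, 2 and 3. Sdf2l1 was at 0.30, -0.46 and -2.22, so mouse 3 was the farthest for both.

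The members were set beside 3 other groups of nuclear mitochondrial genes, without a test between the groups. Complex I subunits had a median of -0.84, and all 38 had separate groups, with 12 called lower (31.6%), where 21.3% of all genes had knockout values below both floxed values and 0.872% were called lower: Ndufa1, Ndufa2, Ndufa5, Ndufa6, Ndufa10, Ndufa11, Ndufa13, Ndufb1, Ndufb4, Ndufb10, Ndufc1 and Ndufs6. The farthest was Ndufc1 at -1.32. With the length trend removed, none of the 38 was called lower and their median was -0.53. Genes of the tricarboxylic acid cycle had a median of -0.58 over 18, with Idh3b called lower (-0.77) and Sdhb farthest (-0.95). Mitochondrial ribosomal proteins had -0.43 over 78, with Mrps21 both farthest and called (-1.09). The median of the import, chaperone and protease genes, -0.37, was thus the nearest to 0 of the 4 groups, and Hspe1, Dnajc19 and Tomm7 were the members below the complex I median.

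**Figure D4:**
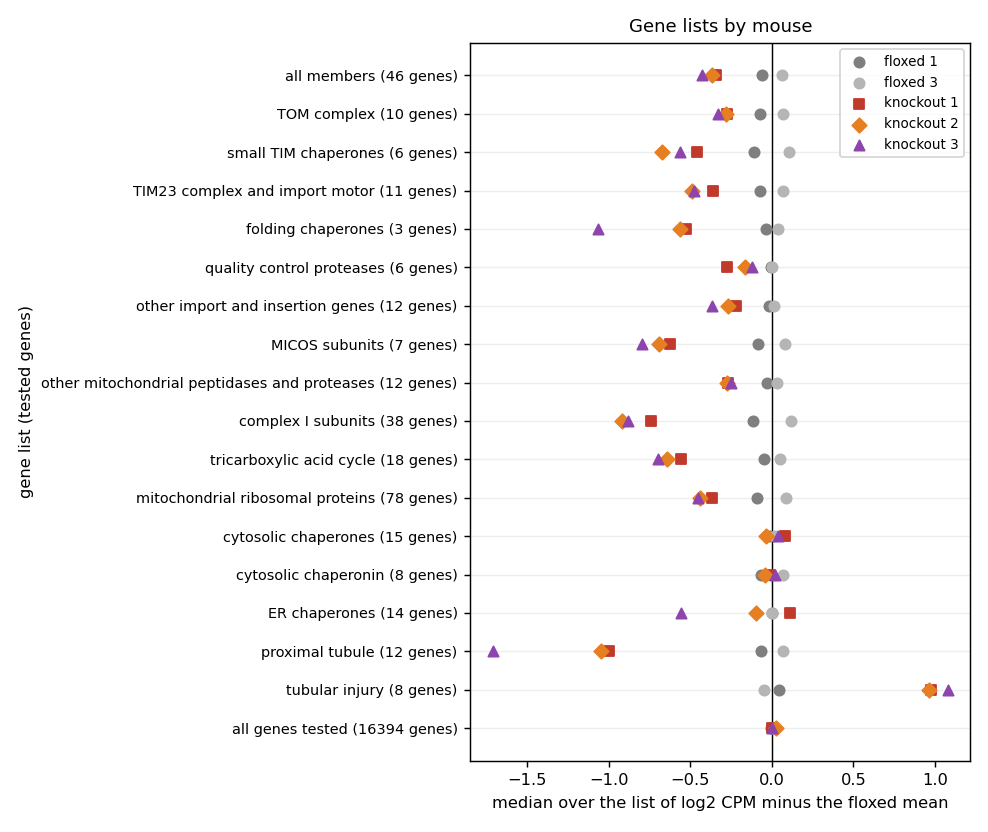
For each gene list (y axis, with the number of tested genes), points give the median log2 CPM minus the floxed mean (x axis) in each of the 5 mice. All members together stood at -0.34, -0.37 and -0.43 in knockout mice 1, 2 and 3, against -0.06 and 0.06 in the floxed mice, nearer to 0 than complex I and farther than the cytosolic chaperones.

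The members were also shorter than most genes, and shorter genes had lower values in these libraries. The merged exon length had a median of 1906 bases in the tested members and 3645.5 in all tested genes. With all genes put in 5 bins of length, the median log2 fold change was -0.16 in the shortest bin (up to 1880 bases) and 0.11 in the longest. The 23 members in the shortest bin had a median of -0.47, the 10 in the next -0.33 and the 7 in the middle bin -0.34, while the 5 in the bin of 4416 to 6859 bases had -0.10 and Oma1, alone in the longest, 0.05. With each library's length trend removed, the median of the members was -0.24 in place of -0.37, and 0 members passed edgeR, against 59 genes lower over the whole table. Dnajc19, Tomm7 and Pmpcb were then at -1.01, -0.74 and -0.63, and 14 of the 46 members had log2 fold changes smaller in size by over 1.5 times.

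**Figure D5:**
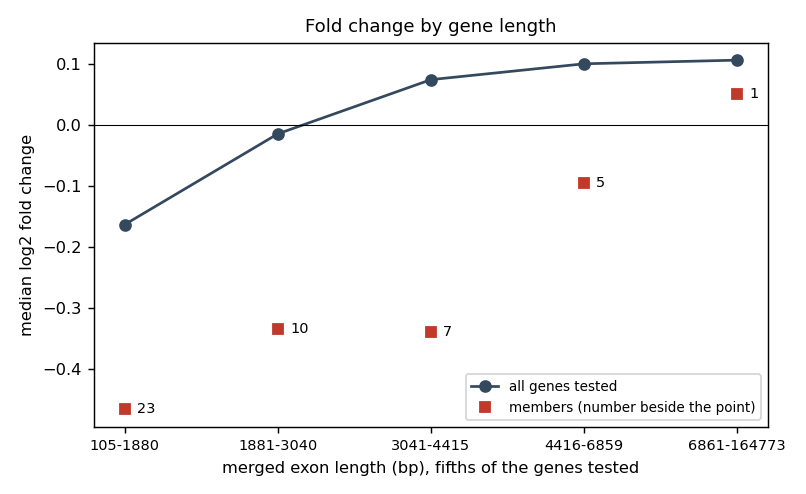
The line gives the median log2 fold change (y axis) of all tested genes in 5 bins of merged exon length (x axis, base pairs), and the squares that of the members, with their number. The line runs from -0.16 to 0.11, and the squares lie below it in every bin.

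Of the cell type markers, Slc22a8, Ggt1 and Nphs1 passed edgeR, all of them lower in the knockout mice. DESeq2 called 7 proximal tubule, 3 podocyte, 2 thick ascending limb and 2 intercalated cell markers lower, where it called 3.38% of all genes lower. In bulk RNA, fewer cells of a type and less RNA per cell cannot be told apart. All 12 proximal tubule markers were expressed and below 0 (median -1.31, 11 with separate groups), and Slc22a8 (-2.68) and Ggt1 (-1.35) were the 2 that passed. Of all genes, 46.0% were below 0, 21.3% had knockout values below both floxed values and 0.872% were called lower. Their summed level, led by Kap, was 22880 and 29280 CPM in the floxed mice and 7618, 9662 and 12180 CPM in the knockout mice. Kap alone held 2996, 4121 and 7403 CPM of the knockout sums. By the median difference from the floxed mean, mouse 3 was the lowest, at -1.71 against -0.998 and -1.05 in mice 1 and 2. Of the tested members, 13 were lowest in knockout mouse 3, 23 in mouse 2 and 10 in mouse 1.

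The thick ascending limb (5 markers, median -0.71, most abundant Umod, farthest Cldn10) summed to 2928 and 3918 CPM against 2710, 2415 and 1294 CPM. The distal convoluted tubule (4, -1.0, Slc12a3, farthest Pvalb) summed to 1897 and 1172 CPM against 1098, 710 and 328 CPM. Principal cells (5, -0.60, Aqp2, farthest Scnn1b) summed to 430 and 353 CPM against 364, 198 and 283 CPM. All 5 mice thus expressed tubular markers, mostly at lower levels in the knockout mice.

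Intercalated cells (5, -0.73, Atp6v0d2, farthest Slc4a1) summed to 305 and 243 CPM against 195, 149 and 151 CPM. Podocytes (5, -0.64, Podxl, with Nphs1 called lower) summed to 687 and 527 CPM against 383, 391 and 430 CPM. Tubular injury genes (8, median 1.08, most abundant Spp1, farthest Lcn2 at 1.89) summed to 15050 and 15630 CPM against 32150, 32810 and 38060 CPM, with none passing edgeR, 6 higher at an unadjusted p under 0.05 (7.64% of all genes) and 6 called higher by DESeq2 (1.2% of all genes). Spp1 held most of these sums. In knockout mouse 3 Cd44 and Vcam1, at 62.0 and 366 CPM, lay below both floxed mice. The other 6 injury genes lay above both floxed mice in every knockout mouse, where 20.3% of all genes did so.

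Fibroblast and pericyte markers (7, median 0.45, led by and farthest in Col3a1) summed to 380 and 585 CPM against 917, 878 and 622 CPM. Macrophage markers (7, 0.25, Lyz2, farthest C1qa) summed to 929 and 1303 CPM against 1498, 1360 and 722 CPM. Endothelial markers (6, 0.01, Emcn, farthest Flt1) summed to 255 and 240 CPM against 234, 204 and 327 CPM. Of these 3, the sums of the first were separate between the groups and those of the others overlapped.

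Lymphocyte markers (6 of 7 tested, -0.23, most abundant Cd8a) summed to 38.2 and 43.3 CPM against 37.0, 51.4 and 23.1 CPM. Red blood cell genes (5, 3.93, Hbb-bs, farthest Hba-a2 at 5.35) summed to 6.67 and 10.8 CPM against 151, 150 and 40.5 CPM. No marker of any list was at 0 in all 5 libraries, and the endothelial, fibroblast, macrophage, lymphocyte and red blood cell lists had no gene that passed edgeR, while DESeq2 called 5 red blood cell genes and 1 fibroblast gene higher (1.2% of all genes). At an unadjusted p under 0.05, 1 endothelial gene was lower, where 11.2% of all genes were, and 4 fibroblast and 5 red blood cell genes were higher, where 7.64% of all genes were. Leaving out 1 mouse moved some of these medians by over 1.5 times. Without floxed mouse 1 the distal convoluted tubule was at -0.57, podocytes at -0.40, principal cells at -0.37 and macrophages at 0.07. Without floxed mouse 3 fibroblasts were at 1.05 and the thick ascending limb at -0.43. Without knockout mouse 1 principal cells were at -0.91 and macrophages at 0.13, without knockout mouse 2 lymphocytes were at -0.66, and without knockout mouse 3 the thick ascending limb was at -0.44 and macrophages at 0.40. The part of these cell types in the values of the import, chaperone and protease genes was not tested.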

How the data were processed

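Per the labels and the study's methods, poly(A) RNA was sequenced as paired ends. The authors deposited counts, FPKM and TPM per gene. Submitters' processing notes name CASAVA, featureCounts 2.0.1, DESeq2 1.16.1 and the human build hg38, although the genes are mouse; the aligner is not given in the sources used here, and only 1 of 48 members has the same start and end as in RefSeq GRCm38.p6, so gene positions are given as the tables have them. Strand use in counting is not stated, so overlapping genes are uncertain. Library kits without molecular identifiers count reads, not molecules.

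Counts were tested with edgeR 4.0.16 (filterByExpr, TMM, quasi-likelihood) on all 35478 genes, of which 16394 were kept, with Benjamini-Hochberg adjustment and a threshold of 0.05. CPM is per 1000000 TMM-scaled counts, and levels between genes were compared on FPKM. R 4.3.3, DESeq2 1.42.0, limma 3.58.1, Python 3.11.15, pandas 2.3.3 and matplotlib 3.10.9 were used, and the fits were tested on simulated data. Genes split over lines (5) were rejoined. Values in every mouse were printed for Prdm16, called members, the member of each role with the highest FPKM or the farthest log2 fold change, and any member higher in all knockout mice; of other lists, called genes and the farthest gene were named, apart from a few not reported here. Members and lists were chosen with earlier results of these data known. Alternatives were DESeq2, other scalings and filters, omission of single mice, a block on mouse number, and removal of length or length and GC trends (loess span 0.3), the GC one chosen after seeing the data.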

Additional observations from a re-analysis of the deposited data

How the results depend on the processing

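The groups hold 2 and 3 mice, and the shares of the error that come from depth and from the mice were not separated. Where a left-out mouse leaves 1 floxed library, that library is assumed to vary like the other group. Of the 46 tested members, 35 were below 0 in all 14 fits; causes of the changes below were not tested, except that leaving out a mouse leaves fewer samples and the threshold on size is stricter. Members called lower were 13 with DESeq2, 5 without a filter, 1 with a log2 change of 1 required, and 0 with library size scaling, with the length trend removed and with length and GC trends removed; leaving out a mouse gave 0 to 19. Tomm7, Dnajc19 and Pmpcb were among the 13 and the 19. The median of all 46 tested members was -0.25 with library size scaling, which also moves the median of all genes from 0.04 to 0.15, -0.24 with length or length and GC trends removed, and from -0.45 to -0.32 without a mouse. Over the whole table, genes called lower and higher were 867 and 308 with DESeq2, 408 and 63 without a filter, 59 and 9 without the length trend, and 41 and 7 without length and GC trends; with library size scaling 37 were lower, and leaving out a mouse gave 0 to 1787 lower and 0 to 1266 higher.

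Mouse numbers 1 and 3 occur in both groups, and the labels do not say whether same-numbered mice were paired. The deviations of same-numbered mice from their group means correlated across genes at 0.00102 and -0.022. With 2 floxed mice, the deviations of one mirror those of the other, so these values cannot decide whether the mice were paired. With the replicate block, 0 members and 0 genes in either direction were called and the median of the members was -0.34. Lower calls among complex I, mitochondrial ribosomal protein and tricarboxylic acid cycle genes were 37, 24 and 14 with DESeq2, 2, 0 and 0 with library size scaling, 31, 3 and 3 without a filter, 5, 0 and 0 with upper-quartile scaling, 23 in complex I and 2 in the cycle with at least 10 counts per library, 0 in each with the block or the trends removed, and 0 to 38, 0 to 39 and 0 to 17 without a mouse. Their medians were -0.72, -0.31 and -0.47 with library size scaling; complex I had -0.53 and -0.52, and the ribosomal proteins -0.26 in both, with length and with length and GC trends removed, and the latter ranged from -0.52 to -0.32 without a mouse. Of the other 29 lists, 20 of 377 medians changed sign. Under library size scaling, the disulfide relay was at 0.096, cytosolic chaperones 0.109, Tomm20 0.078, Grpel2 0.006, Chchd4 0.082 and Yme1l1 0.044. Under the block, the relay was at 0.048, cytosolic chaperones 0.049, Tomm20 0.049 and Chchd4 0.009. With the length trend removed, and then with GC as well, the relay was at 0.093 and 0.091, cytosolic chaperones 0.02 and 0.015, Tomm22 0.059 and 0.065, Timm10 0.08 and 0.077, Chchd4 0.16 and 0.165, and Oma1 -0.027 and -0.025. Upper-quartile scaling put cytosolic chaperones at 0.007, and a minimum of 10 counts per library put the cytosolic chaperonin and Gfer at -0.001. Without single mice, medians ranged from -0.065 to 0.053 for the relay, -0.026 to 0.056 for cytosolic chaperones, -0.059 to 0.059 for the chaperonin, and up to 0.013 from -0.656 for lymphocytes, with endothelium from -0.052 to 0.107. Single genes ranged from -0.211 to 0.071 for Tomm20, -0.275 to 0.026 for Grpel2, -0.093 to 0.012 for Chchd4, -0.119 to 0.094 for Gfer and -0.223 to 0.258 for Clpx. The lowest values of Grpel2, Gfer, Clpx and Tomm20 and the only sign changes of endothelium and lymphocytes came without knockout mouse 3.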
